A study of Homo sapiens with 2 samples.

Results

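The genes described here are the 186 protein-coding genes of the distal long arm of human chromosome 1 that start between 205 and 247.3 Mb (genome build hg18) and have at least 100 reads over both libraries. Of 296 protein-coding genes in this interval, 200 reached 100 reads, and 14 of those (histone, SLC, RAB and ZNF genes) were left out. A further 96 genes had fewer reads, 48 of them 0 in both libraries. Over the whole genome, 14186 protein-coding genes reached 100 reads. The interval was chosen by the gene ratios themselves, the log2 ratios of MIP/5FU over MIP101 described here, so every value of that contrast is a description and carries no test.

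The study sequenced polyadenylated RNA from a pair of human colorectal cancer cell lines, with 1 library of each, to find genes and isoforms that differ with resistance to 5-fluorouracil (5-FU), a chemotherapy drug that inhibits thymidylate synthase. MIP/5FU is a resistant clone, obtained by passaging the parental cells in rising amounts of 5-FU. Its IC50 for 5-FU is 10-fold higher, and it was kept in 5 µM of the drug. MIP101 is the sensitive parent, derived from a liver metastasis and kept without drug. For the last 48 hours or so before RNA isolation, neither culture had drug or antibiotics. No other allele or agent is named for either line, and MIP/5FU is a single clone, so what differs by clone and what differs by resistance cannot be told apart.

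The long arm of chromosome 1 carries genes of unrelated function, and what they share is their place on the chromosome. Chromosome arms are often gained or lost in carcinomas, the long arm of chromosome 1 being one of those often gained, and the transcript levels of many genes follow the number of gene copies while others are held by feedback or by stronger regulation. DNA of these lines was not analysed here.

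Reads assigned to genes numbered 109693681 in MIP/5FU and 200141071 in MIP101. All ratios are the log2 of a gene's share of gene reads in MIP/5FU over its share in MIP101, after adding 0.5 reads, and RPM is the usual reads-per-million scale, here of gene reads. Intervals are exact 95% binomial intervals and cover only the error of counting. Reads amplified by PCR carried no molecular identifiers and are not independent molecules, and with 1 library per line no difference has a replicate check. Of 9 colon epithelial markers, 8 had at least 1 RPM in both lines, LGALS4 being the exception with 0.720 RPM in MIP/5FU and 1.79 RPM in MIP101. Their summed level was 8591 RPM in MIP/5FU and 7908 RPM in MIP101, mostly from KRT8 and KRT18. Without these keratins it was 1440 RPM in MIP/5FU and 1809 RPM in MIP101, and 5 of the other 7 markers were lower in MIP/5FU. CDH17 had 225 RPM in MIP/5FU and 353 RPM in MIP101, VIL1 had 53.4 RPM and 125 RPM, and KRT20 had 19.4 RPM and 2.86 RPM. Summed levels were far lower for the other marker lists. The 6 hepatocyte markers had 6.72 RPM in MIP/5FU and 8.18 RPM in MIP101, with APOA1 at 0 in both. Most of this was SERPINA1, with 3.90 RPM in MIP/5FU and 6.72 RPM in MIP101. The 6 blood markers had 2.43 RPM and 1.59 RPM, with HBB at 0 in both. The 6 fibroblast and endothelial markers had 17.0 RPM and 21.1 RPM, with CDH5 at 0 in both. Among them, PDGFRB had 16.3 RPM in MIP/5FU and 12.3 RPM in MIP101, while COL3A1 had 0.346 RPM and 8.29 RPM. The part of these markers in the ratios was not tested. In bulk RNA, fewer cells of a type and less RNA per cell cannot be told apart.

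The distal 1q genes were slightly lower in MIP/5FU as a group. Their median log2 ratio was -0.35, a level 1.27-fold lower in MIP/5FU, with quartiles of -0.51 and -0.08. Together they took 9296 RPM in MIP/5FU and 11978 RPM in MIP101. The median over all 14186 protein-coding genes was 0.02, and 0.03 over the 12748 on other chromosomes. Of the 186 distal genes, 147 (79.0%) lay below 0, against a background of 47.2% of all protein-coding genes, and 39 lay above 0, against 52.8%. The interval was wholly below 0 for 134 genes, against a background of 37.7%, and wholly above 0 for 22, against 40.5%.

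Large differences were few. At a log2 ratio at least 0.32 from 0 with an interval that excludes 0, 101 of the 186 genes (54.3%) were lower, against a background of 18.5% of all protein-coding genes, and 11 (5.91%) were higher, against 19.3%. At 2-fold, 11 genes were lower (5.91%), against a background of 3.24%, and 0 were higher, against 2.51%. A total of 102 genes (54.8%) lay within 0.25 of the group's own median, and 51.3% of all protein-coding genes lay as close to theirs. The interquartile range was 0.42 over the distal genes and 0.48 over all protein-coding genes, so the distal genes spread about as much around their lower median as other genes do around 0. Counting error is small beside this spread: the median half-width of the intervals was 0.068.

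**Figure D1:**
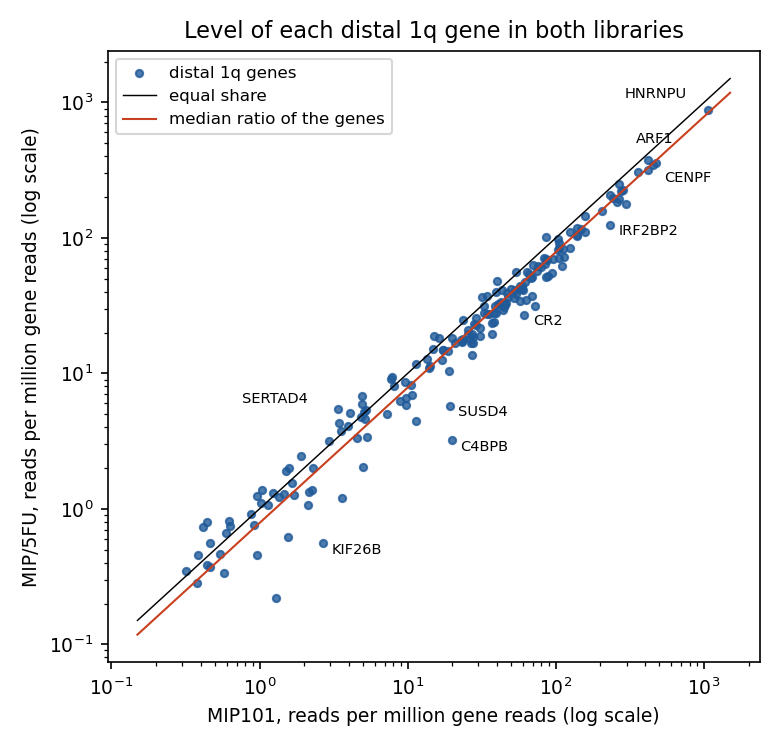
Level of each of the 186 distal 1q genes in MIP/5FU (vertical axis) against MIP101 (horizontal axis), in RPM on log scales, 1 point per gene. The black line marks equal shares and the red line the median ratio of -0.35 (log2); points at high levels lie along the red line, points at low levels scatter to both sides of it, and C4BPB, SUSD4 and KIF26B lie well below it.

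The trace along position covered 42.3 Mb. The running median of 15 neighbouring genes lay below 0 in 172 of 172 windows. With windows of 10 genes, 176 of 177 lay below 0, and the highest median was 0.082, from AL359551.13 to AL606534.15; with windows of 15 over all genes that had at least 1 read, the highest was 0.078. Its lowest value, -0.59, was reached from TARBP1 to MTR (hg18 232593682 to 235130585). Its highest, -0.16, was reached from TRIM17 to TTC13 (226662259 to 229181207). Read in steps of 5 Mb, the median of the genes from 205 to 210 Mb was -0.23 over 26 genes, and from 210 to 215 Mb it was -0.42 over 19. It was -0.39 from 215 to 220 Mb, -0.33 from 220 to 225 Mb and -0.29 from 225 to 230 Mb, over 15, 32 and 39 genes. The last 4 steps had medians of -0.42, -0.34, -0.41 and -0.27, over 20, 9, 18 and 8 genes. The steps differ by less than the interquartile range of the genes within each of them.

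**Figure D2:**
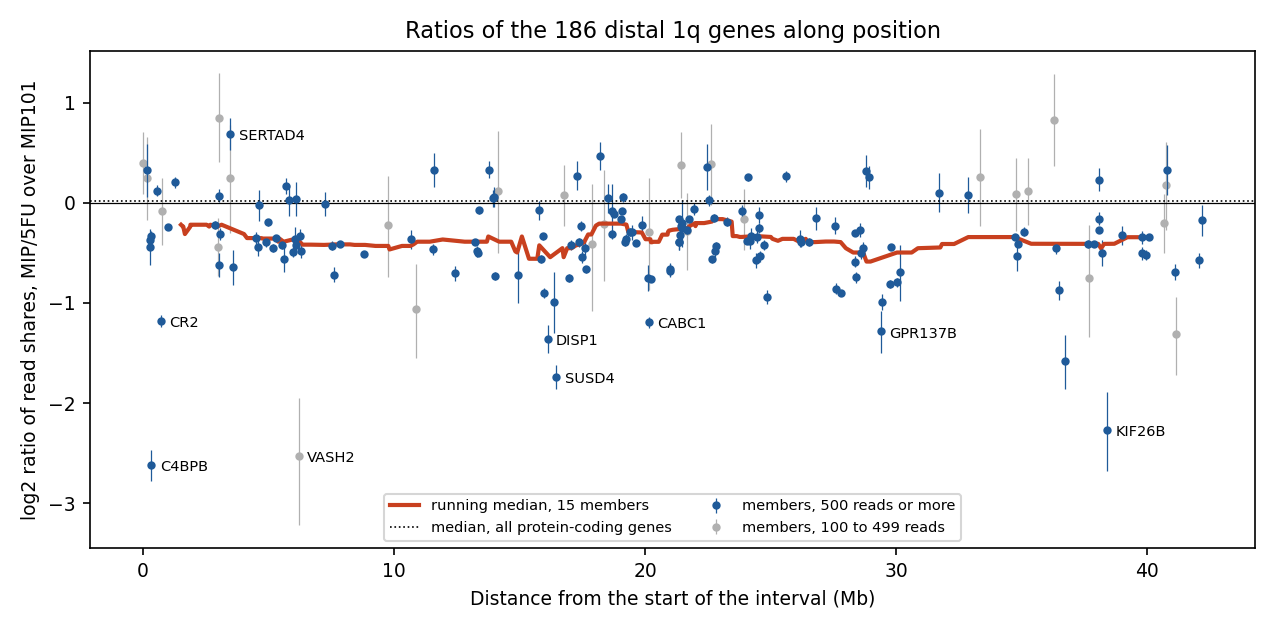
Log2 ratio of read shares, MIP/5FU over MIP101, for the 186 distal 1q genes against the distance of each gene's start from the start of the interval in Mb; bars are 95% counting intervals, and genes with fewer than 500 reads are grey. The running median of 15 genes (red) stays between -0.59 and -0.16, below the median of all protein-coding genes at 0.02 (dotted).

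At the interval's lower limit, the first 5 Mb bin inside had a median of -0.22 over 27 genes and the bin before it -0.36 over 54, and their quartiles overlapped. The first genes inside the limit were IL10, with a log2 ratio of 0.40, and FAIM3 (now FCMR) at 0.25, both with fewer than 500 reads. The last genes before it, DYRK3 (a dual-specificity kinase) and MAPKAPK2 (a kinase downstream of p38), had -0.62 and -0.23. At the far end, SH3BP5L had -0.57 and PGBD2 -0.17, and no counted gene starts beyond the second limit. At the limit of 100 reads, HLX (38 reads in MIP/5FU and 64 in MIP101) and CNIH3 (31 and 76) lay just inside, and AGT, with 48 reads in MIP/5FU and 36 in MIP101, just outside. AGT would have entered with a log2 ratio of 1.28.

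The remainder of the long arm read much like the distal interval, and the short arm did not. The 442 genes of the proximal long arm had a median log2 ratio of -0.32, and 334 of them (75.6%) lay below 0. The 796 genes of the short arm had a median of 0.12, and 259 (32.5%) lay below 0. In bins of 5 Mb, all 9 distal bins had medians below 0, between -0.42 and -0.22. All 13 bins of the proximal long arm were also below 0, and 5 of 25 on the short arm. On either side of the centromere, the last 10 genes of the short arm had a median of -0.12 and the first 10 of the long arm -0.22. With 20 genes on each side the medians were -0.01 and -0.24, and with 40 they were 0.06 and -0.22. The difference across the centromere was smallest for the nearest genes. The lower level in these libraries was shared by both stretches of the long arm.

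**Figure D3:**
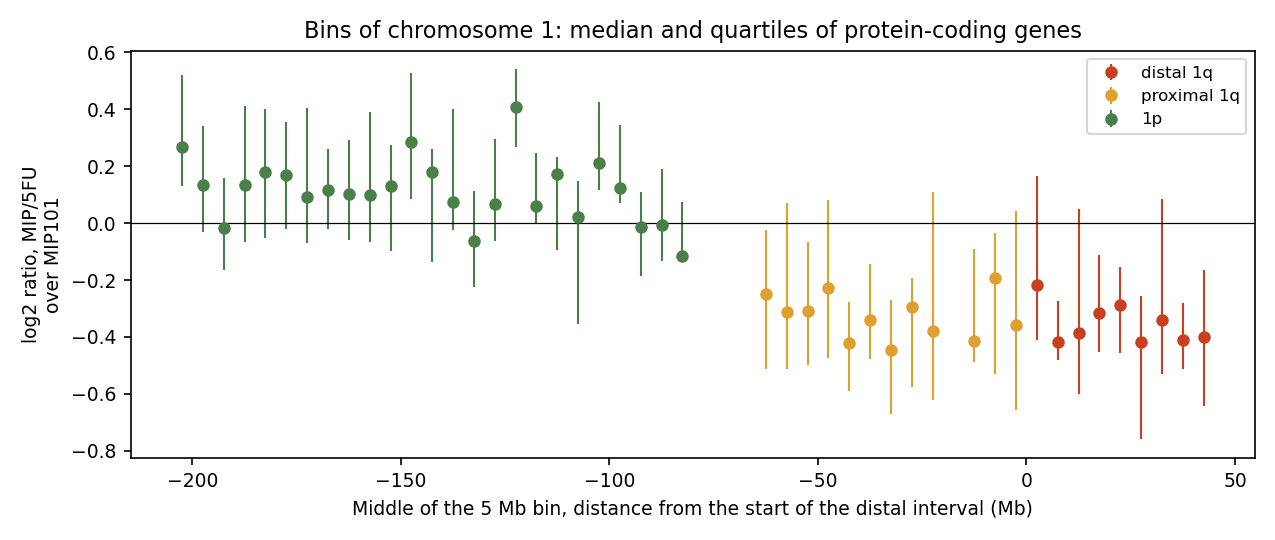
Median log2 ratio, MIP/5FU over MIP101, of protein-coding genes in 5 Mb bins of chromosome 1 (points, bins of at least 5 genes) with quartiles (bars), against the distance of the bin's middle from the start of the distal interval in Mb. Distal bins (red) lie between -0.42 and -0.22, the proximal bins of the long arm (yellow) overlap them, and most bins of the short arm (green) lie above 0.

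Genes with many reads kept closer to the common ratio than genes with few. Of the 62 distal genes with most reads (15177 to 307802 over both libraries), 60 lay below 0 and the median was -0.39. Of the next 62 (3565 to 14938 reads), 53 lay below 0, with a median of -0.36. Of the 62 with fewest reads (102 to 2986), 34 lay below 0 and the median was -0.08, with quartiles of -0.52 and 0.25. Genes outside the long arm drifted the same way: in the same 3 ranges of reads, from fewest to most, their medians were 0.13, 0.01 and -0.01. Genes on the plus strand (99, median -0.34) and on the minus strand (87, median -0.36) had similar medians.

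The role lists are read against the whole interval, with 79.0% of genes below 0 and 54.3% lower by at least 0.32, and against all protein-coding genes, with 47.2% and 18.5%. Of 16 genes of cell division and DNA repair, 15 lay below 0 (93.8%), with a median of -0.39, and 11 were lower by at least 0.32 (68.8%). CENPF, a kinetochore protein of mitotic cells, had 38865 reads (354 RPM) in MIP/5FU and 94514 reads (472 RPM) in MIP101, a log2 ratio of -0.41 (-0.43 to -0.40). PARP1, which senses DNA strand breaks, had 34941 reads (319 RPM) in MIP/5FU and 84223 reads (421 RPM) in MIP101, a log2 ratio of -0.40 (-0.42 to -0.38). These abundant genes, counted with little error, lay close to the group's median. AHCTF1 (ELYS), which starts nuclear pore assembly on chromatin, had 225 RPM in MIP/5FU and 285 RPM in MIP101, at -0.34. The cell cycle kinase NEK2 stood at -0.39, the ubiquitin ligase subunit DTL at -0.35 and the nuclease EXO1 at -0.29. VASH2 had 24 reads in MIP/5FU and 257 in MIP101, a log2 ratio of -2.53 (-3.22 to -1.95), the lowest of this list but on few reads. C1orf96 (now CCSAP) was the 1 member above 0, at 0.02 with an interval that spans 0.

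Of 28 mitochondrial and metabolic genes, not all of them enzymes, 26 lay below 0 (92.9%), with a median of -0.36. By at least 0.32, 17 were lower (60.7%), beside 54.3% over the interval and 18.5% over all protein-coding genes. EPRS, the glutamyl-prolyl-tRNA synthetase, had 344 RPM in MIP/5FU and 450 RPM in MIP101, at -0.39. IARS2, the mitochondrial isoleucyl-tRNA synthetase, had 184 RPM in MIP/5FU and 259 RPM in MIP101, at -0.50. FH, the fumarase of the citric acid cycle, had 12860 reads in MIP/5FU and 29728 in MIP101, at -0.34. MTR, the methionine synthase that uses methyltetrahydrofolate, had 5998 reads (54.7 RPM) in MIP/5FU and 18979 reads (94.8 RPM) in MIP101, at -0.79 (-0.84 to -0.75). The enzyme furthest below the common ratio was CABC1 (now COQ8A), an atypical kinase needed for coenzyme Q synthesis, with 3466 reads (31.6 RPM) in MIP/5FU and 14447 reads (72.2 RPM) in MIP101, 2.28-fold lower (2.20 to 2.37). EPHX1, the microsomal epoxide hydrolase, stayed near 0 at -0.08, with 252 RPM in MIP/5FU and 267 RPM in MIP101. EPHX1 overlaps TMEM63A on the other strand, and the protocol marks no strand, so their shared bases cannot be told apart.

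Genes of membrane traffic and secretion had 16 of 17 members below 0 (94.1%), with a median of -0.41, and 8 were lower by at least 0.32 (47.1%), beside 54.3% over the interval and 18.5% over all protein-coding genes. Its 3 most read members, ARF1, SRP9 and RAB3GAP2, lay above the list's median. ARF1, the GTPase that recruits the COPI coat, had 378 RPM in MIP/5FU and 421 RPM in MIP101, at -0.16. SRP9, of the signal recognition particle, had 208 RPM in MIP/5FU and 232 RPM in MIP101, also at -0.16. Per length, the 5 highest genes of the interval were ARF1, EPHX1, HNRNPU, SRP9 and PARP1; ARF1 had 172 RPM per kilobase of exon in MIP/5FU and 192 in MIP101. SRP9 and TOMM20 have processed pseudogenes and ARF1 close paralogs, to which the authors' counting could have assigned part of the reads. DISP1, which releases lipid-modified Hedgehog ligands, had 486 reads in MIP/5FU and 2274 in MIP101, 2.56-fold lower (2.32 to 2.83). GPR137B, a lysosomal membrane protein, had 224 reads in MIP/5FU and 997 in MIP101, 2.44-fold lower (2.11 to 2.83). ERO1LB (now ERO1B), an oxidase of the endoplasmic reticulum, had 1505 reads in MIP/5FU and 5450 in MIP101, at -0.99.

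Transcription, chromatin and RNA genes had 23 of 26 members below 0 (88.5%, beside 79.0% over the interval and 47.2% over all protein-coding genes), with a median of -0.40. HNRNPU, an abundant nuclear RNA-binding protein, was the most read gene of the interval, with 96005 reads (875 RPM) in MIP/5FU and 211797 reads (1058 RPM) in MIP101. Its log2 ratio was -0.27 (-0.28 to -0.26). HEATR1, needed for ribosomal RNA synthesis, had 195 RPM in MIP/5FU and 265 RPM in MIP101, at -0.45. IRF2BP2, a corepressor that binds IRF2, was lower than these, with 13723 reads (125 RPM) in MIP/5FU and 46661 reads (233 RPM) in MIP101, 1.86-fold lower (1.83 to 1.90). Its neighbour TARBP1, an RNA methyltransferase, stood at -0.86 and ARID4B, a chromatin-binding subunit of a histone deacetylase complex, at -0.74. Both lie in the window with the lowest running median.

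Among adhesion, ligand and signalling genes, 13 of 18 lay below 0 (72.2%) and the median was -0.43. By at least 0.32, 11 were lower (61.1%, beside 54.3% over the interval and 18.5% over all protein-coding genes) and 2 higher (11.1%, beside 5.91% and 19.3%). SUSD4, a membrane protein with sushi domains, had 634 reads in MIP/5FU and 3862 in MIP101, 3.34-fold lower (3.07 to 3.64). TLR5, the flagellin receptor, had 117 reads in MIP/5FU and 425 in MIP101, at -0.99 (-1.30 to -0.69). LGALS8, a sugar-binding galectin, had 62.2 RPM in MIP/5FU and 109 RPM in MIP101, at -0.81, and PPP2R5A, a regulatory subunit of protein phosphatase 2A, stood at -0.42. LAMB3, a chain of the epithelial laminin-332, had 71.4 RPM in MIP/5FU and 83.0 RPM in MIP101, at -0.22. On the other side of 0, TGFB2, a secreted growth factor, had 472 reads in MIP/5FU and 684 in MIP101, at 0.33 (0.16 to 0.50). The microtubule-regulating kinase MARK1 had 2066 reads in MIP/5FU and 2993 in MIP101, also at 0.33 (0.25 to 0.41), and GNG4, a G protein subunit, stood at 0.32.

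Cytoskeletal genes and calpains had 9 of 13 members below 0 (69.2%, beside 79.0% over the interval and 47.2% over all protein-coding genes) and a median of -0.16. CDC42BPA, a kinase that acts on myosin downstream of CDC42, had 19377 reads (177 RPM) in MIP/5FU and 59893 reads (299 RPM) in MIP101, at -0.76 (-0.78 to -0.74). CAPN2, a calcium-dependent protease, had 5774 reads in MIP/5FU and 17731 in MIP101, at -0.75 (-0.79 to -0.71). ENAH, an actin regulator, had 145 RPM in MIP/5FU and 156 RPM in MIP101, at -0.11. KIF26B, a kinesin family protein, had 61 reads in MIP/5FU and 539 in MIP101, 4.81-fold lower (3.71 to 6.42).

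Of the complement and immune genes, 5 of 9 lay below 0 (55.6%, beside 79.0% over the interval and 47.2% over all protein-coding genes) and the median was -0.08. C4BPB, the beta chain of C4b-binding protein, an inhibitor of complement, was the lowest gene of the interval, with 352 reads (3.21 RPM) in MIP/5FU and 3955 reads (19.8 RPM) in MIP101. It was 6.15-fold lower (5.52 to 6.89). CR2, the complement receptor for C3d, had 2964 reads (27.0 RPM) in MIP/5FU and 12275 reads (61.3 RPM) in MIP101, 2.27-fold lower (2.18 to 2.36). Both genes lie in the same cluster as CD55 and CD46, which protect cells from complement and did not share their size of difference. CD55 had 37.2 RPM in MIP/5FU and 34.2 RPM in MIP101, at 0.12 (0.07 to 0.18), and CD46 had 304 RPM in MIP/5FU and 358 RPM in MIP101, at -0.24 (-0.26 to -0.22). PIGR, the epithelial receptor for polymeric immunoglobulin, had 208 reads in MIP/5FU and 303 in MIP101, at 0.33 (0.06 to 0.58).

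Of the 39 genes above 0, 28 were among the 62 with fewest reads, 17 had intervals that span 0, and 9 are not protein-coding in GENCODE 29 or have an identifier not in it. Such genes made up 16 of the 186, and their median log2 ratio was 0.07; over the 170 that are protein-coding there it was -0.37. The highest gene with at least 500 reads was SERTAD4, with 600 reads in MIP/5FU and 678 in MIP101, 1.61-fold higher (1.44 to 1.80). It overlaps C1orf133 on the other strand, which stood at 0.25. C1orf67 followed at 0.47, TMEM78 at 0.36, OR2C3 (an olfactory receptor gene) at 0.33, AC138393.2 (now named as the pseudogene SEPTIN7P13) at 0.27 and SIPA1L2 at 0.26. Only 11 of the 39 had at least 10 RPM in MIP101. Among these, chosen after their values were seen, the semaphorin receptor PLXNA2 had 36.4 RPM in MIP/5FU and 31.5 RPM in MIP101, and TTC13 had 102 RPM in MIP/5FU and 85.1 RPM in MIP101.

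Where products of the interval work in complexes or cycles, the distal gene was usually below its partners encoded elsewhere. The interval was chosen by its low ratios, so this order follows from the choice and is not a result about complexes. Of 17 members with a partner list, 17 lay below 0, beside 79.0% over the interval. Of these members, 15 lay below the median of their partners outside the long arm. The lists of PPP2R5A and ARF1 hold only paralogs, not partners in a complex. The members' median was -0.39. The 87 partner genes had a median of -0.07, and 54 lay below 0. All 13544 protein-coding genes outside the long arm had a median of 0.03, with 45.8% below 0. FH at -0.34 lay below all 14 other citric acid cycle genes outside the long arm, whose values ran from -0.11 to 0.33 with a median of 0.08. SDHC, which lies on the proximal long arm, had -0.43. NUP133, a scaffold of the nuclear pore, had 84.6 RPM in MIP/5FU and 125 RPM in MIP101, and at -0.56 it lay below all 8 of its partners (-0.45 to 0.19). TBCE, a tubulin-folding cofactor, had 21.8 RPM in MIP/5FU and 30.7 RPM in MIP101, and at -0.50 it lay below the other 4 cofactors (-0.05 to 0.38). CAPN2 at -0.75 stood against 0.29 for CAPNS1, the small subunit that it binds.

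The other lists gave these values. NSL1 of the MIS12 kinetochore complex was at -0.49 and its partners outside the long arm at 0.03 and 0.18. LAMB3 was at -0.22 and LAMA3 at 0.46. INTS7 of the Integrator complex was at -0.45, with a partner median of -0.22 (range -0.55 to -0.03). EPRS was at -0.39, with a partner median of -0.19 (range -0.71 to 0.05). PPP2R5A was at -0.42, with a median of -0.16 for its 4 listed paralogs (range -0.27 to -0.14). TOMM20, a receptor of the mitochondrial import pore, was at -0.30 with 0.08, TSNAX at -0.42 with -0.16 for its partner TSN, and EXOC8 of the exocyst at -0.25 with -0.08. PSEN2, a catalytic subunit of gamma-secretase, was at -0.75, with -0.11 for PSENEN. SRP9 (-0.16 with -0.07) and COG2 of the Golgi tethering complex (-0.08 with -0.06) lay close to their partners. The exceptions were RAB3GAP2 at -0.07, above its partner RAB3GAP1 at -0.36, and ARF1 at -0.16, above a median of -0.22 for its paralogs.

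**Figure D4:**
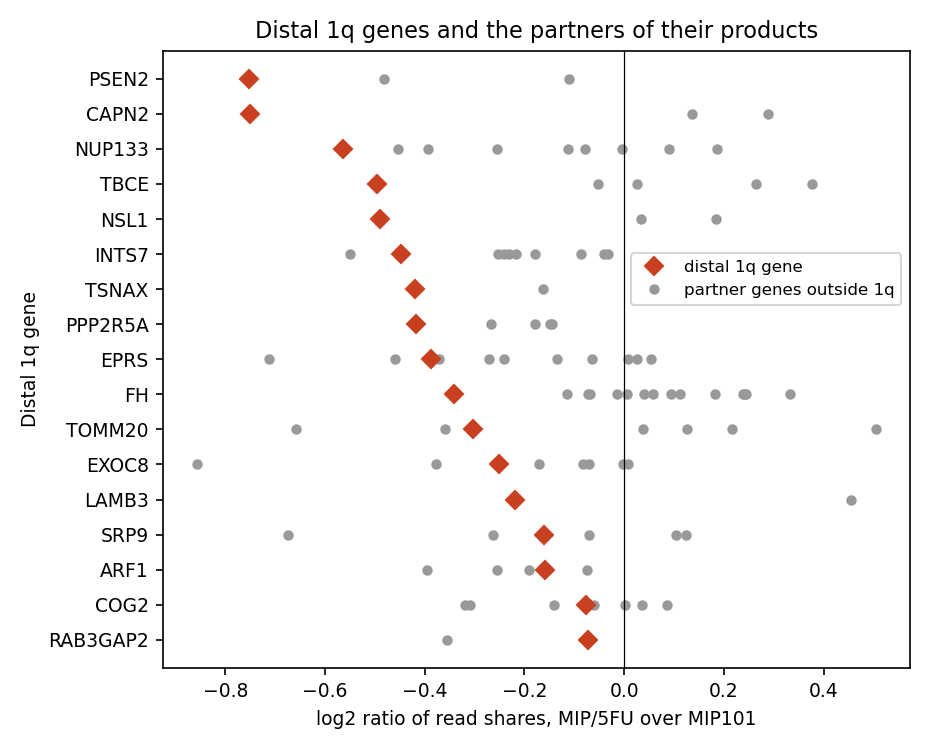
Log2 ratio of read shares, MIP/5FU over MIP101, of 17 distal 1q genes (red diamonds) and of the partner genes of their products outside the long arm (grey points), 1 row per distal gene, lowest at the top. FH, NUP133, TBCE, PPP2R5A, NSL1, CAPN2, PSEN2, TSNAX and LAMB3 lie to the left of every plotted partner. Of these, NSL1, CAPN2 and PSEN2 have only 2 plotted partners, and TSNAX and LAMB3 only 1. RAB3GAP2 lies to the right of its only one. The grey points of PPP2R5A and ARF1 are paralogs.

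The lower ratio was seen in most exon regions of the members rather than in single exons. In the 173 members with tested exon regions, 1737 of 2004 regions (86.7%) lay below 0, against 52.9% of all tested regions of protein-coding genes. In 142 members with at least 3 regions, the median over regions was within 0.1 of the gene's own ratio in 123. Every region was below 0 in 79 of the 142, so not in all. A gene and its regions are counted from the same reads, so their agreement is partly built in. These counts were not made over all protein-coding genes. PARP1 had all 25 regions below 0, CENPF all 20 and HEATR1 all 47. C4BPB had all 8, with a median of -2.60, and CR2 all 22, with a median of -1.20.

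Features that departed from their gene were few. For each feature the splicing index subtracts the log2 ratio of the gene from that of the feature, and a feature was counted at an index of at least 1 in size with an interval excluding 0. Among exon regions, 4 were higher (0.200%) and 4 lower (0.200%), against a background of 0.164% and 0.112%. Among 1545 junctions, 0 were higher, against a background of 0.056%, and 1 was lower, against 0.0998%. Among 360 exon-intron boundaries, 2 were higher, against a background of 0.736%, and 0 were lower, against 0.12%. No p was computed for any of these.

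The 4 higher regions lie in genes that were themselves lower. The first exon region of DISP1 had 59.7 read equivalents in MIP/5FU and 80.7 in MIP101, an index of 1.79. A region of exon 4 of GPR137B had 21.4 in MIP/5FU and 28.7 in MIP101, an index of 1.74. One of exon 1 of MOSC1 (now MTARC1) had 92.4 in MIP/5FU and 123 in MIP101, an index of 1.19. In CABC1, the noncoding region of exon 4 had 33.2 read equivalents in MIP/5FU and 55.7 in MIP101, an index of 1.32. Pooled after these values were seen, exons 1 to 6 of CABC1, all noncoding, had 101 read equivalents in MIP/5FU and 185 in MIP101, at -0.0020 (-0.37 to 0.35), while exons 7 to 21 had 3360 in MIP/5FU and 14191 in MIP101, at -1.21 (-1.27 to -1.16). The early exons hold few of the gene's reads in either line. Only 2 of these 6 regions reached 50 read equivalents over both libraries, at -0.31 and 0.13. The exon 1 region, with 24.1 in MIP/5FU and 55.4 in MIP101, lies inside another member on the same strand, AL391628.18. Its reads therefore cannot be assigned to CABC1 alone.

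The 1 lower junction joins exons 9 and 10 of TATDN3, with 11 reads in MIP/5FU and 76 in MIP101, an index of -1.51. The 2 higher boundaries are in GUK1, guanylate kinase, at the end of exon 6 and the start of exon 7. The boundary at exon 6 had 28 reads in MIP/5FU and 21 in MIP101, and that at exon 7 had 35 in MIP/5FU and 32 in MIP101, with indices of 1.59 and 1.31. Where each library had at least 500 reads of the gene, the lowest junction index was in LAMB3, where a junction that skips exon 18 had 2 reads in MIP/5FU and 26 in MIP101. The highest was in CDC42BPA, where a junction that skips 1 exon had 12 reads in MIP/5FU and 10 in MIP101. The intervals of both span 0.

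Promoters of the members gave a measure that does not depend on the reads. RefSeq promoter sequences (GRCh38.p14, 250 bases before to 50 after the start) matched 154 of the 186 genes. A ratio of observed to expected CpG of at least 0.6 was found in 125 of them (81.2%), against 79.6% of the 10791 matched protein-coding genes that reached 100 reads. Those 125 members had a median log2 ratio of -0.37, with 108 below 0. The 29 under 0.6 had a median of -0.22, with 17 below 0, and their levels were lower, with a median of 3.21 RPM in MIP/5FU and 3.57 RPM in MIP101, against 31.7 RPM in MIP/5FU and 39.8 RPM in MIP101. A GC box (GGGCGG) was present on either strand in 64.9% of the matched promoters and in 44.6% of all 27305 promoters in the table, and in 68.5% of those of the 10791 genes. A CCAAT box (CCAAT) was in 35.1%, against 35.7% of all promoters and 36.7% of those of the 10791 genes. A TATA box (TATAAA) was in 7.14%, against 11.95% of all promoters and 6.04% of those of the 10791 genes. These searches count letters in a window and do not show binding.

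The 250 bases before the start of 4 members show the range of their promoters, from the lowest genes (C4BPB and CR2) to genes close to the common ratio (PARP1 and HNRNPU). They are RefSeq sequences on GRCh38.p14, read 5′ to 3′ on the gene's own strand. C4BPB is at chr1:207088610-207088859 and CR2 at chr1:207454078-207454327, both on the plus strand. PARP1 is at chr1:226408094-226408343 and HNRNPU at chr1:244864544-244864793, both on the minus strand. Capitals mark the GC box, the CCAAT box and the TATA box on either strand.
C4BPB: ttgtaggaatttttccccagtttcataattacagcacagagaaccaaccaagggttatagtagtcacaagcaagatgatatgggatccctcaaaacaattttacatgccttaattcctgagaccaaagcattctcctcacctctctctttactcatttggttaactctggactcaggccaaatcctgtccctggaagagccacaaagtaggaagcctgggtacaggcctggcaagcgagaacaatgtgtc
CR2: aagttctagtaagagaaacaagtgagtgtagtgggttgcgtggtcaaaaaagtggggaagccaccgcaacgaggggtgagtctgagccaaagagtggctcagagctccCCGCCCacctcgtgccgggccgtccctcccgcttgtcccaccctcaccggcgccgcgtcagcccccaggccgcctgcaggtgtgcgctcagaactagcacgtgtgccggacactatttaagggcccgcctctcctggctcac
PARP1: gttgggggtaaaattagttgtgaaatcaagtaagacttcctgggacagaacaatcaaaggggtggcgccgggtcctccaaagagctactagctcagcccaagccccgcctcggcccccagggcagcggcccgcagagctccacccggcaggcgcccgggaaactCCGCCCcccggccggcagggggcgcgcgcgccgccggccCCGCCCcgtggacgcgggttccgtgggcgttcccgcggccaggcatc
HNRNPU: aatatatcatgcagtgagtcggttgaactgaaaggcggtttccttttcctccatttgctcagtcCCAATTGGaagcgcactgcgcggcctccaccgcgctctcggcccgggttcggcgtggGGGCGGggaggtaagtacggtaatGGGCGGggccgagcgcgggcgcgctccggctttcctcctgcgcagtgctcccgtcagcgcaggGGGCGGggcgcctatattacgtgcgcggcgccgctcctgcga
The C4BPB sequence holds none of the 3 motifs and 1 CpG, at 44.4% GC. CR2 has 1 GC box and 17 CpG. PARP1 has 2 GC boxes and 26 CpG, and HNRNPU has 3 GC boxes, 31 CpG and 2 CCAAT boxes that overlap on opposite strands.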

How the data were processed

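Polyadenylated RNA of MIP/5FU and MIP101 was sequenced, 1 library each, as paired 42-mers or 36-mers after random priming and 10 cycles of PCR, per the labels. The protocol as described marks no strand. The authors placed reads on features of Ensembl release 53, per the file names, on hg18, per the submitters' processing notes. The alignment tool, not given in the sources used here, could affect reads of near-identical copies. Tables of genes, junctions and boundaries as deposited hold raw read counts. Exon region tables hold coverage as deposited (signal summed by the authors over bases), which was divided by the mean bases per read to give read equivalents. The authors' normalized coverage served as an alternative.

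Ratios are log2 of shares of gene reads after adding 0.5 reads, with exact conditional binomial 95% intervals. Genes needed 100 reads over both libraries and were counted at 1.25-fold (0.32 on the log2 scale) or 2-fold. The splicing index had a 99.9% interval and needed 50 read equivalents (exon regions) or 20 reads (junctions and boundaries), in genes with 200 reads over both libraries and 10 in each. With 1 library per line no test was made. The procedure was tested on simulated data. Gene reads numbered 109693681 in MIP/5FU and 200141071 in MIP101.

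The members and lists were chosen with earlier results of these data known. Named were the 10 lowest and 10 highest members with at least 500 reads, the 3 most read members of each role list, the 5 highest per kilobase, members with partner lists, genes at the limits of the rule, and the 5 highest and 5 lowest exon regions and junctions in genes with 500 reads in each library. Others were added after their values were seen, and a few that the rule covers are not reported here. Where 5 or fewer features were counted, those reported were named. RAB3GAP2 and ARID4B are not RAB or histone genes and were kept. Alternatives were the median-ratio and TMM scalings, normalized coverage, other pseudocounts, read minima, windows and bins, exon medians, the left-out families, and members that are protein-coding in GENCODE 29 or overlap no gene on the other strand. Transcript tables were not used here. Computation used scipy 1.17.1, numpy 2.4.6 and pandas 2.3.3 under Python 3.11.15, with plots in matplotlib 3.10.9. TMM factors came from edgeR 4.0.16 under R 4.3.3.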

Additional observations from a re-analysis of the deposited data

How the results depend on the processing

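Median-ratio scaling and TMM scaling moved every log2 ratio by -0.03 and -0.05. The median log2 ratio of the 186 genes, -0.35, ran from -0.41 (exon medians) to -0.35 over the 10 alternatives, and the counts below 0 and at least 0.32 lower stayed within 1.5 times their values in all 10. Genes at least 0.32 higher, 11, numbered 7 under median scaling, 6 under TMM, 7 with at least 500 reads, 5 by exon medians and 7 when protein-coding in GENCODE 29. Genes at least 2-fold lower, 11, numbered 7 by exon medians, over 142 genes. Genes at least 2-fold higher, 0, numbered 3 with at least 1 read and 1 with the left-out families kept (HIST3H2A). The lowest running median, -0.59, was -0.72 with at least 1 read, -0.69 without genes overlapping the other strand, -0.74 in windows of 10 and -0.47 in windows of 25. The highest, -0.16, turned to 0.078 with at least 1 read and to 0.082 in windows of 10, where 176 of 177 windows were below 0. In 10 Mb bins the highest distal median was -0.31, against -0.22 in 5 Mb bins. At a splicing index of 1.5, exon regions numbered 2 higher and 0 lower and boundaries 1 higher. Against the median of the gene's features, they numbered 7 higher and 0 lower (exon regions), 2 higher (junctions), and 1 higher and 2 lower (boundaries). The cause was not tested for these moves. The 2 choices made after seeing the data were the GENCODE 29 and the overlap subsets. No paired analysis was possible because each line has 1 library. Depth limits genes with few reads most: the widest half-width was 0.64.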

Other observations

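The 14 genes of the interval that were left out by family were lower too in 12 cases, with a median log2 ratio of -0.41. ZNF496 and ZNF672, zinc finger genes near the end of the arm, had the lowest values among them, at -0.81 and -0.75. HIST3H2A, a replication-dependent histone gene, stood apart with 1617 reads in MIP/5FU and 612 in MIP101, 4.82-fold higher (95% interval 4.39 to 5.30); transcripts of such genes mostly lack a poly(A) tail, and polyadenylated RNA was sequenced. Its neighbour HIST3H2BB had 46 reads in MIP/5FU and 55 in MIP101, at 0.61 (0.01 to 1.20).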
